A study of Mus musculus with 24 samples.

Results

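RNA was measured on Affymetrix expression arrays in primary mouse cortical neurons that had received BDNF together with the BET inhibitor IBET858, and the arrays taken at 12 h were compared with those taken at 2 h. These cultures account for 6 of the 24 arrays, 3 at each time, and were chosen by their sample titles. Neurons came from embryos at day 18 and were kept for 1 week before treatment. The other arrays held cultures with BDNF alone, with IBET858 alone and with the solvent DMSO, each with 3 arrays at 2 h and 3 at 12 h. BDNF was given at 50 ng/ml and IBET858 at 1 µM. The time difference with BDNF alone served as the main point of reference, and it shares no array with the cultures that received both agents. The labels give no strain, sex or genotype and do not tell if the 3 arrays of a group stem from independent cultures. The p-values therefore refer to the spread among the deposited samples, which may be technical.

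BDNF is a neurotrophin that binds the receptor tyrosine kinase TrkB (encoded by Ntrk2) and activates MAP kinase, PI3 kinase and phospholipase C signalling. In cortical neurons it rapidly induces immediate early genes, mostly transcription factors such as Fos and Egr1, and later a wave of effector genes that act on synapses, channels and the extracellular matrix. BET proteins (Brd2, Brd3 and relatives) bind acetylated histones through bromodomains and help recruit the elongation factor P-TEFb to RNA polymerase II, and BET inhibitors displace them from chromatin. The comparison of 12 h with 2 h addresses how transcript levels moved on from the early phase while both agents were present.

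Values are on a log2 scale and each probe set had been centred on its median over the 24 arrays, so they give differences between arrays and not how abundant a transcript was. A value of 0 is the middle of the 24 arrays. The 6 arrays with both agents lay close to their group means, with a standard deviation of 0.084 to 0.099 over the 18193 genes. The DMSO array 1 at 2 h (0.178) and the IBET858 array 3 at 12 h (0.157) stood apart from the rest, and neither belongs to the cultures with BDNF. Since the values are centred, markers of the labelled cell type could show change but not presence. Genes with a limma adjusted p below 0.05 (Benjamini-Hochberg over all genes) are called. Log2 differences are given ± the standard error from limma, with 3 arrays per group.

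Between 2 h and 12 h, transcripts changed over much of the genome in the cultures with both agents. Of 18193 genes, 11062 (60.8%) were called, 4791 higher (26.3%) and 6271 lower (34.5%) at 12 h. With BDNF alone 7172 genes (39.4%) were called, 20.1% of all genes higher and 19.3% lower. With IBET858 alone 8615 (47.4%) were called (23.0% higher, 24.3% lower), and with DMSO 1372 (7.54%; 3.91% higher, 3.63% lower). At least 2-fold changes among called genes numbered 826 higher (4.54%) and 877 lower (4.82%) with both agents, against 217 (1.19%) and 231 (1.27%) with BDNF alone. The IBET858 cultures had 265 (1.46%) and 602 (3.31%) such genes, and the DMSO cultures 0 (0.0%) and 12 (0.066%). The DMSO count depended on the fit, with 136 genes called when the DMSO arrays were fitted alone and 3933 with array weights. The median change over all genes was −0.10 with both agents and −0.03 with BDNF alone. The 24 poly-A spike-in control probe sets, which read transcripts added during labelling, were on average 0.37 higher at 12 h with both agents, with arrays from −0.10 to 0.57 at 2 h and from 0.41 to 0.66 at 12 h, and differed by −0.07 with BDNF alone. Their part in the gene differences was not tested.

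The direction of change was often shared with BDNF alone, and the size often was not. Of the 11062 genes called with both agents, 4843 (43.8%) were called in the same direction with BDNF alone, 2494 of them higher and 2349 lower. For 2396 of those the difference between both time differences was itself called. Another 897 genes (8.11%) were called in opposite directions, 438 of them higher with both agents and lower with BDNF. The difference was called for all 897, which follows from the choice, since called changes of opposite sign add up in their difference. The remaining 5322 (48.1%) were not called with BDNF alone, and the difference was called for 3049 of them. Over all genes, the difference of the time differences was called for 7326 genes (40.3%), 3517 higher (19.3%) and 3809 lower (20.9%) with both agents. It was at least 2-fold for 512 (2.81%) and 541 (2.97%) of them. The difference from DMSO was called for 8452 genes (46.5%), 3988 higher (21.9%) and 4464 lower (24.5%). Across genes, the time differences with both agents and with BDNF alone correlated with Pearson's r = 0.529 (Spearman's rho = 0.506), and those with both agents and with IBET858 alone with r = 0.744 (rho = 0.681). The corresponding r with DMSO was 0.289. The correlations are over 18193 genes of one platform, which are not independent replicates.

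**Figure D1:**
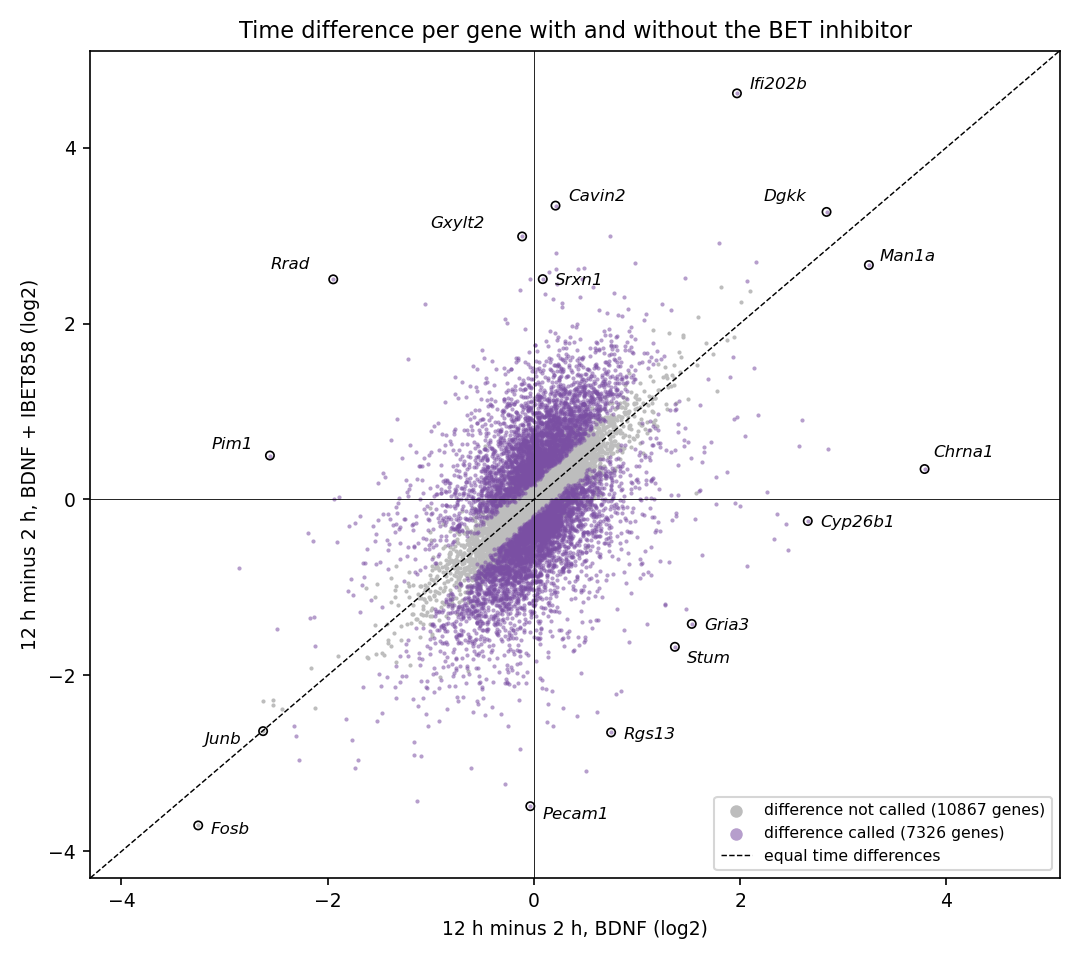
Each point is 1 of 18193 genes, with its 12 h minus 2 h difference (log2) under BDNF on the horizontal axis and under BDNF with IBET858 on the vertical axis. The dashed line marks equal differences and purple marks the 7326 genes whose difference between treatments was called. Fosb and Junb lie near the line, Gxylt2 and Srxn1 rose only on the vertical axis, and Rrad and Gria3 have opposite signs on the axes.

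The immediate early genes, which encode the transcription factors that neurotrophins and neuronal activity induce first, were mostly lower at 12 h, with and without the inhibitor. Of 35 listed activity-induced transcription factors, 22 were lower and 4 higher with both agents, with a median of −0.69, where 34.5% of all genes were lower and 26.3% higher. With BDNF alone 26 were lower and 1 higher, with a median of −0.83, where 19.3% of all genes were lower and 20.1% higher. The decline was not limited to cultures with an added agent, because 17 of the 35 were also lower with DMSO (3.63% of all genes), where the median was −0.37. The number of genes called with DMSO depended on the fit, as given above. The difference between both agents and BDNF alone was called for 10 members upward and 7 downward, where 19.3% of all genes were called upward and 20.9% downward. The downward count was near the share over all genes. The median was 0.11 beside −0.07 over all genes.

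Fosb, a partner of JUN proteins in the AP-1 factor, showed the deepest fall of all named genes. It read 3.29, 3.33 and 3.35 at 2 h with both agents and −0.38, −0.41 and −0.35 at 12 h. The 6 arrays formed 2 well separated sets. It fell by 3.70 ± 0.13 (13-fold, adjusted p = 1.71e-15), beside −3.25 with BDNF alone and −2.71 with DMSO, and the difference from BDNF alone missed the threshold (−0.45 ± 0.19, adjusted p = 0.0594). Junb, another AP-1 subunit, fell by 2.63 ± 0.08 with both agents and by 2.63 with BDNF alone. Egr4, a zinc finger factor of the EGR family, fell by 2.69 ± 0.09, and Btg2, an antiproliferative immediate early gene, by 2.96 ± 0.14. Fos itself fell by 1.12 ± 0.07, by nearly as much with DMSO (−1.06), and Npas4, a factor induced by calcium entry, fell by 1.11 ± 0.21.

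Arc and Egr1 did not follow that pattern. Arc, an immediate early gene whose product acts at the postsynapse on AMPA receptor uptake, read 3.13, 3.03 and 3.24 at 2 h and 2.97, 3.0 and 2.85 at 12 h with both agents. All 3 late arrays were just below the early ones, and the difference of −0.19 ± 0.14 was not called (adjusted p = 0.226), though it was when only the arrays compared were fitted (adjusted p = 0.0431). With BDNF alone the arrays went from 3.01, 2.88 and 3.01 to 1.12, 1.26 and 1.47. The time differences of the 2 treatments differed by 1.49 ± 0.19 (adjusted p = 1.84e-06), and Arc lay closer to its early value in the cultures that also held the inhibitor. Egr1 fell by 0.25 ± 0.09 with both agents (adjusted p = 0.0161), a call lost when each array was centred on its own median (adjusted p = 0.053) or array 1 of the 2 h group was left out (adjusted p = 0.0531). The difference from BDNF alone was not called (0.23 ± 0.12, adjusted p = 0.135). Pim1, a serine/threonine kinase, went from 2.49, 2.48 and 2.36 to 3.0, 2.94 and 2.88 with both agents, and from 2.71, 2.62 and 2.68 to −0.05, 0.12 and 0.26 with BDNF alone. The groups did not overlap in either treatment, and the difference was 3.06 ± 0.12 (adjusted p = 1.68e-13).

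Among the regulators that feed back on MAP kinase signalling (27 measured), 9 were higher and 10 lower with both agents, not far from the shares over all genes (26.3% and 34.5%). In the difference from BDNF alone 11 were called upward and 3 downward, beside 19.3% and 20.9% of all genes. Spred1, which restrains RAS and RAF, rose by 1.81 ± 0.07 with both agents and by 0.22 with BDNF alone. Dusp14, a dual-specificity phosphatase, fell by 1.47 ± 0.09 with both agents and by 2.49 with BDNF alone, and Dusp3 fell by 1.25 ± 0.08 beside 0.16 with BDNF alone. Of 17 neurotrophins, receptors and sorting proteins, 4 were higher and 4 lower, no larger a share than over all genes. Ntrk2 fell by 0.54 ± 0.06. The Bdnf transcript read −0.46, −0.48 and −0.49 at 2 h and −0.05, 0.02 and 0.06 at 12 h with both agents. These arrays did not overlap, but the difference of 0.49 ± 0.26 was not called (adjusted p = 0.11). The shared standard error includes the DMSO array 1 at 2 h, which read −1.36 where the other 2 read 0.14 and 0.34. Without that array and the IBET858 array 3 at 12 h the Bdnf difference was called (adjusted p = 0.000952), as it was when only the arrays compared were fitted (adjusted p = 6.37e-05) and with array weights (adjusted p = 0.00779). The sorting receptors of the VPS10 family moved apart, with Sorcs3 up by 1.28 ± 0.15 and Sorcs2 down by 1.40 ± 0.13.

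Ifi202b, an interferon-inducible DNA-binding protein of the p200 family, rose most among the named genes. With both agents it read −0.02, −0.15 and −0.09 at 2 h and 4.57, 4.48 and 4.54 at 12 h. The late arrays stood far above all others in the study, since with BDNF alone the 12 h arrays were at 1.83, 2.02 and 2.12 and with IBET858 alone at 1.03, 1.05 and 0.81. The rise was 4.62 ± 0.13 (24.5-fold, adjusted p = 8.74e-17), beside 1.97 with BDNF, 1.35 with IBET858 and 0.24 with DMSO. One probe set measured it, and related members of the p200 family may share its probes. Of 24 listed interferon-stimulated genes, 3 were higher and 10 lower with both agents, where 26.3% of all genes were higher and 34.5% lower. Irf1, an interferon-induced transcription factor, was down by 0.64 ± 0.10 and B2m, the light chain of MHC class I, up by 0.94 ± 0.10.

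The 15 named genes with the largest rises with both agents, chosen among called genes, changed by 2.51 to 4.62, with no adjusted p above 1.44e-11. They differed in their values with single agents. Dgkk (a diacylglycerol kinase), Man1a (a Golgi mannosidase that trims N-glycans) and Shroom4 (a cytoskeletal protein) rose by 3.27 ± 0.09, 2.66 ± 0.08 and 2.70 ± 0.14, and also by 2.84, 3.25 and 2.15 with BDNF alone. Cavin2, a coat protein of caveolae, Bbx, an HMG-box factor, and Mdm1 rose by 3.34 ± 0.10, 2.58 ± 0.09 and 2.51 ± 0.09 with both agents and by 3.58, 2.08 and 2.02 with IBET858 alone, beside 0.21, 0.14 and 0.47 with BDNF alone. Dlgap2 (2.52 ± 0.15) also rose by 1.47 with BDNF alone, and Man1c1, another mannosidase (2.61 ± 0.11), by 1.70 with IBET858 alone. Other genes had far larger values with both agents than with either agent alone. Gxylt2, a xylosyltransferase of O-glucosylated EGF repeats, rose by 2.99 ± 0.13 beside −0.11 with BDNF and −0.04 with IBET858. Its arrays read −0.17, −0.17 and 0.14 at 2 h and 2.81, 3.02 and 2.95 at 12 h, while the 18 arrays of the other treatments stayed between −0.33 and 0.37. Fndc9 (2.62 ± 0.14, beside 0.21 and −0.16) and Ebf3, a transcription factor of the EBF family (2.69 ± 0.06, beside 0.98 and 0.33), differed from BDNF alone by 2.41 ± 0.20 and 1.71 ± 0.08.

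Serpinb2, an inhibitor of urokinase-type plasminogen activator, and Srxn1, a sulfiredoxin that reactivates oxidised peroxiredoxins, were already above DMSO at 2 h in the cultures with BDNF and rose further only with both agents. With both agents Serpinb2 read 3.57, 2.93 and 3.48 at 2 h and 6.20, 6.01 and 6.16 at 12 h, and with BDNF alone 1.20, 1.37 and 1.57 and then 1.31, 1.75 and 1.73. Srxn1 read 0.66, 0.64 and 0.65 at 2 h and 3.12, 3.20 and 3.16 at 12 h with both agents, against 1.12, 1.07 and 1.13 and then 1.18, 1.22 and 1.18 with BDNF alone. In both genes every 12 h array with both agents was above every other array of the study. The rises were 2.80 ± 0.17 for Serpinb2 and 2.50 ± 0.07 for Srxn1, and they exceeded those with BDNF alone by 2.58 ± 0.25 (adjusted p = 2.98e-08) and 2.42 ± 0.10 (adjusted p = 1.68e-13).

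At 2 h Serpinb2 was higher with both agents than with BDNF alone, and Srxn1 was lower. The promoters of Srxn1 and Serpinb2 are shown as examples, picked by hand and not by a rule. Both genes were highest at 12 h with both agents, as were Ifi202b and Gxylt2, whose promoters are not shown. Both windows hold the motif marked below, so they do not stand for such genes at large. They span 250 bases before to 50 after the annotated start in RefSeq, assembly GRCm38.p6, on the plus strand, at chr2:152105274-152105573 for Srxn1 and chr1:107511173-107511472 for Serpinb2 (1 of 2 starts listed). Capitals mark the AP-1 motif TGANTCA, which reads the same on both strands.
Srxn1: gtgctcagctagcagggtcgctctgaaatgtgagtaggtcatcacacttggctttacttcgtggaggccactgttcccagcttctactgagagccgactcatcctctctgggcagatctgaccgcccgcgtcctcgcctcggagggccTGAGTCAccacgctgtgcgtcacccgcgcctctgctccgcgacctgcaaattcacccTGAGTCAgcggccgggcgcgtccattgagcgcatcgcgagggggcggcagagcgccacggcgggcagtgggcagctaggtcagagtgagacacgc
Serpinb2: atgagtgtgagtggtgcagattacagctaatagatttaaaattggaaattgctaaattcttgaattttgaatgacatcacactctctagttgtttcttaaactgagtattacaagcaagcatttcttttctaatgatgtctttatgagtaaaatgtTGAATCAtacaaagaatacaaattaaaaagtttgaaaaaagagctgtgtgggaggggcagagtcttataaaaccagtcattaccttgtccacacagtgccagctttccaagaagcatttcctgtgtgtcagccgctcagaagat
The Srxn1 window holds 2 matches and the Serpinb2 window 1. Of the 14452 measured genes with a promoter in the table, 1090 (7.54%) held the motif. Of 317 genes at least 2-fold higher both at 12 h with both agents and in the difference from BDNF alone, 262 had a promoter in the table and 13 (4.96%) held the motif. A match describes the letters of the window and shows no binding.

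**Figure D2:**
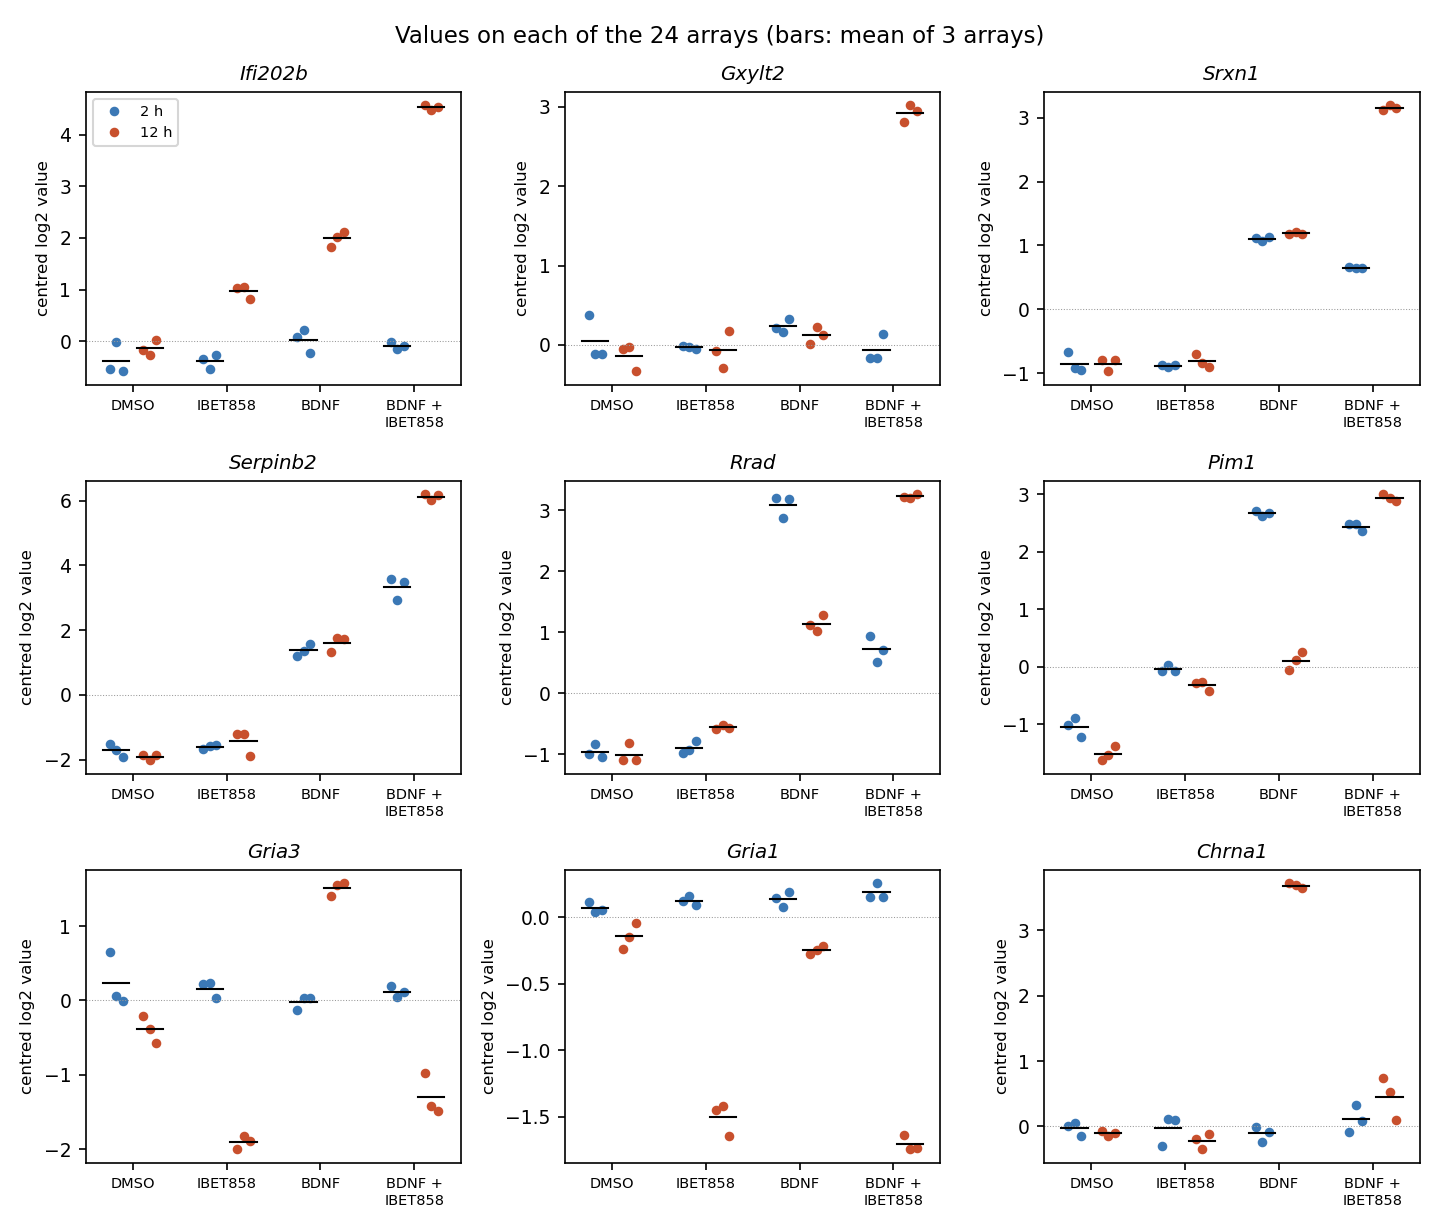
Centred log2 values of 9 genes on each of the 24 arrays, by treatment on the horizontal axis, with 2 h in blue, 12 h in orange and a bar at the mean of 3 arrays. The 12 h arrays with both agents are the highest of all for Ifi202b, Gxylt2, Srxn1 and Serpinb2, Pim1 at 12 h lay between 2.88 and 3.0 with both agents and between −0.05 and 0.26 with BDNF alone, and Gria3 fell with both agents and rose with BDNF alone.

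Tnc, the matrix glycoprotein tenascin C, moved in opposite directions from 2 h to 12 h with BDNF alone and with IBET858 alone, and rose more with both. It rose by 2.99 ± 0.19 with both agents and by 0.74 with BDNF alone, and it fell by 1.16 with IBET858 alone. The 12 h arrays with both agents read 4.03, 3.79 and 3.74, and those with IBET858 alone −1.93, −1.96 and −1.87. Its 2 probe sets differed in size, at 1.57 and 4.41. Relative to IBET858 alone, the named genes with the largest positive differences were Tnc, Ifi202b, C1ql3, Lancl3 and Slc17a6. C1ql3, a secreted synaptic organiser of the C1q family, rose by 2.30 ± 0.12 with both agents beside −0.93 with IBET858 alone, and Slc17a6, the vesicular glutamate transporter VGLUT2, rose by 1.03 ± 0.08 beside −2.47. In all, 5876 genes (32.3%) were called in the difference from IBET858 alone, 3022 higher (16.6%) and 2854 lower (15.7%).

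Receptors and channels of the synapse were mostly lower at 12 h with both agents. Of 22 glutamate receptor subunits, 17 were lower and 4 higher with both agents (34.5% and 26.3% of all genes), with a median of −0.54. With BDNF alone 6 were lower and 8 higher, with a median of −0.07, and with IBET858 alone 16 were lower and 0 higher, with a median of −0.71. Over all genes 19.3% were lower and 20.1% higher with BDNF alone, and 24.3% and 23.0% with IBET858 alone. The difference from BDNF alone was called downward for 14 glutamate receptor subunits and upward for 0 (20.9% and 19.3% of all genes). Of 15 genes for GABA receptors, GABA synthesis and transport, 11 were lower and 1 higher with both agents, with a median of −0.81 beside −0.17 with BDNF alone. With IBET858 alone 11 were lower and 0 higher, with a median of −0.71. Of 25 sodium, calcium and HCN channel genes, 19 were lower and 2 higher with both agents (median −0.49, beside −0.09 with BDNF alone). With IBET858 alone 17 were lower and 2 higher (median −0.31). Of 48 potassium channel genes 29 were lower and 6 higher with both agents, and 23 and 3 with IBET858 alone. As the arrays read whole cultures, fewer cells of a type and less RNA per cell cannot be told apart.

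The AMPA receptor subunits Gria1 and Gria3 are examples. Gria1 read 0.15, 0.26 and 0.16 at 2 h and −1.64, −1.75 and −1.74 at 12 h with both agents, and 0.15, 0.08 and 0.19 and then −0.27, −0.25 and −0.21 with BDNF alone. The groups were separate in both treatments, and the fall of 1.90 ± 0.06 with both agents was deeper by 1.51 ± 0.09 (adjusted p = 2.86e-11). Gria3 read 0.19, 0.05 and 0.11 at 2 h and −0.98, −1.42 and −1.49 at 12 h with both agents, whereas with BDNF alone it went from −0.13, 0.04 and 0.03 to 1.41, 1.55 and 1.58. It thus fell by 1.41 ± 0.14 in one treatment and rose by 1.53 in the other, a difference of −2.95 ± 0.20 (adjusted p = 2.41e-10). With IBET858 alone it fell by 2.07.

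Further receptor and channel genes fell by similar or larger amounts. Grm5 and Grm3, metabotropic glutamate receptors, fell by 2.15 ± 0.09 and 2.01 ± 0.09, and Grik1, a kainate receptor subunit, by 1.96 ± 0.16. Among the GABA-A receptor subunits Gabra5, Gabrb1 and Gabrb2 fell by 2.08 ± 0.11, 2.09 ± 0.10 and 1.87 ± 0.06, beside −0.08, −0.66 and −0.17 with BDNF alone. The voltage-gated sodium channel genes Scn2a and Scn1a fell by 2.09 ± 0.10 and 1.74 ± 0.07. Probe sets of 1 gene could differ in size, from −3.0 to −0.23 for Gabrb1 and from −2.80 to −0.45 for Scn2a. Kcnk2, the potassium leak channel TREK-1, fell by 2.90 ± 0.16 and Kcnh1 by 2.25 ± 0.08.

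Genes for synaptic contacts and transmitter release were also more often lower than higher. Of 46 synaptic adhesion molecules, 30 were lower and 6 higher with both agents (34.5% and 26.3% of all genes). With BDNF alone 17 were lower and 11 higher (19.3% and 20.1%), and with IBET858 alone 31 and 3 (24.3% and 23.0%). Cntn6, a contactin, read 0.25, 0.10 and 0.28 at 2 h and −3.52, −2.95 and −3.20 at 12 h with both agents. Its fall of 3.43 ± 0.13 was deeper than with BDNF alone (−1.13) by 2.30 ± 0.19 (adjusted p = 2.62e-09). Of 38 genes of the presynaptic release machinery, 23 were lower and 9 higher. Doc2a, a calcium sensor of vesicle release, fell by 2.42 ± 0.09, while Sv2c, a vesicle glycoprotein, rose by 1.52 ± 0.11. Of 35 postsynaptic scaffold and signalling genes, 17 were lower and 9 higher, the latter near the share over all genes, and Dlgap2, a scaffold protein of the postsynaptic density, was among the highest rises of all, as given above. Of 52 axon guidance genes, 26 were lower and 8 higher, with Sema3a, a secreted repellent, down by 2.32 ± 0.12 beside 0.13 with BDNF alone. Of 59 very long neuronal genes, 33 were lower and 10 higher with both agents, 22 and 15 with BDNF alone, and 45 and 3 with IBET858 alone. The shares over all genes were those given above for each treatment.

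**Figure D3:**
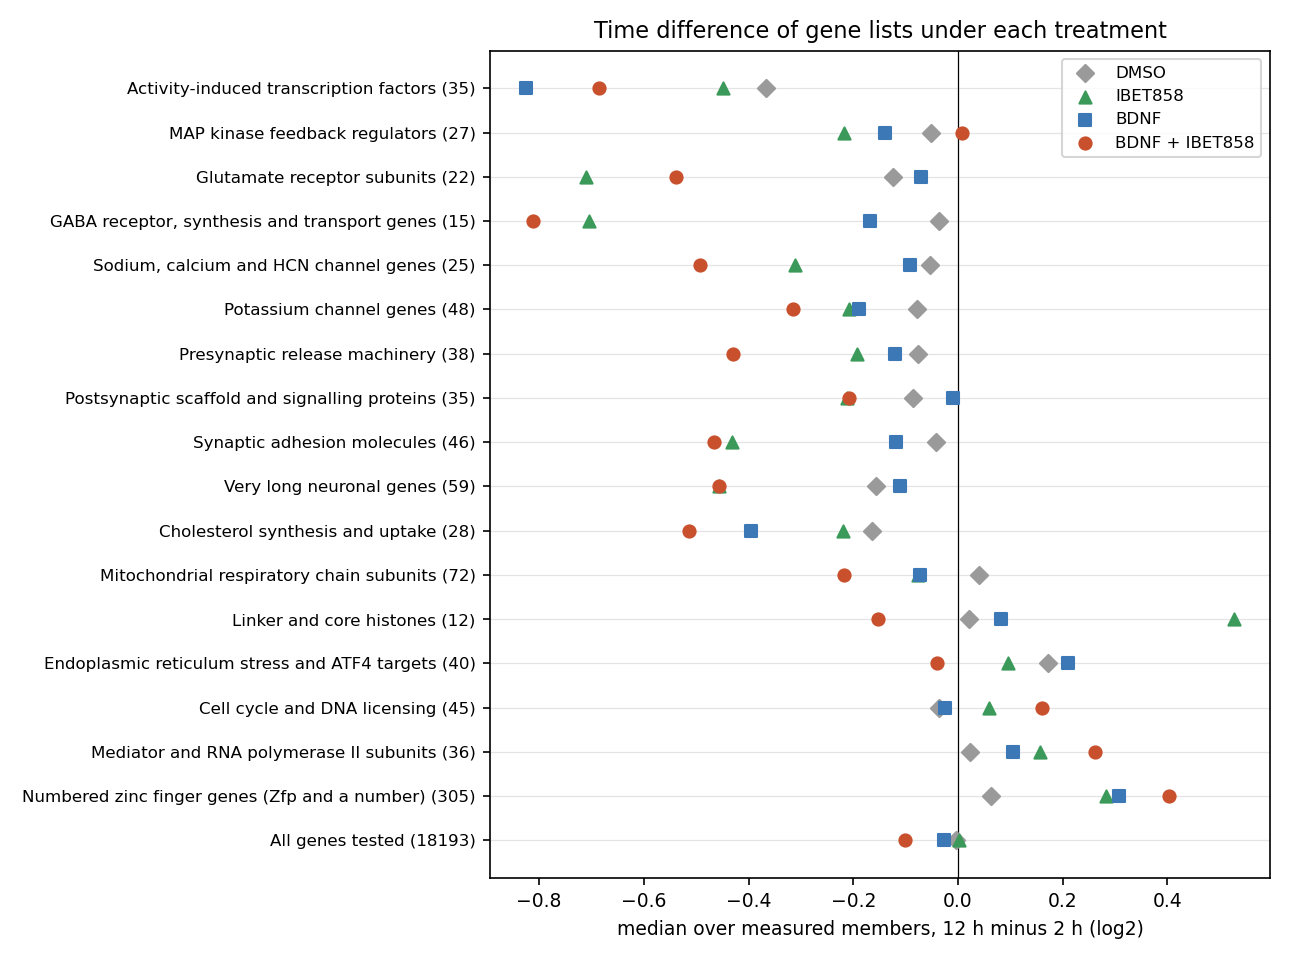
Median 12 h minus 2 h difference (log2) over the measured members of 17 gene lists and over all genes, with the number of members in brackets and 1 symbol per treatment. With both agents the glutamate receptor, GABA and sodium, calcium and HCN channel lists lie at −0.54, −0.81 and −0.49, to the left of BDNF alone, and the zinc finger list lies at 0.40.

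Several of the deepest falls came from transcripts that were high at 2 h with both agents and back near 0 at 12 h. Pecam1, an adhesion molecule of endothelial cells and leukocytes, read 3.48, 3.61 and 3.40 at 2 h with both agents and −0.03, 0.02 and 0.04 at 12 h. The 18 arrays of the other treatments lay between −0.31 and 0.54, far below the 3 early arrays. The fall was 3.49 ± 0.12 (adjusted p = 1.14e-15), beside −0.03 with BDNF, 0.09 with IBET858 and −0.01 with DMSO. Of the 19 listed markers of vascular cells and fibroblasts, Pecam1 included, 11 were lower and 0 higher with both agents (34.5% and 26.3% of all genes). With BDNF alone 0 were lower and 1 higher (19.3% and 20.1% of all genes). Their mean level per array ran from 0.33 to 0.37 at 2 h and from −0.17 to −0.04 at 12 h with both agents, and from −0.01 to 0.00 and from −0.16 to −0.01 with BDNF alone. This mean holds the values of Pecam1 itself and was not computed without them. Kdr, Tek, Cldn5 and Flt1, further endothelial genes, differed by −0.18, −0.18, −0.17 and −0.03 with both agents and were not called, and Cdh5 fell by 0.19 (adjusted p = 0.0276). The part of these cell types in the fall of Pecam1 was not tested.

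Tmem54, a membrane protein, had the same course and read 2.93, 2.33 and 3.19 at 2 h and 0.14, −0.19 and 0.00 at 12 h. Its fall was 2.83 ± 0.15, and the arrays of the other treatments stayed between −0.29 and 0.17. Rcc1, the exchange factor for the GTPase Ran, read 2.80, 2.89 and 2.98 and then 0.76, 0.67 and 0.70, a fall of 2.18 ± 0.07, while with BDNF alone it rose by 0.84. Polg2, the accessory subunit of the mitochondrial DNA polymerase, read 2.49, 2.54 and 2.52 and then −0.04, 0.09 and 0.12, a fall of 2.46 ± 0.09. For each of the 3 genes the early arrays with both agents were the highest of the 24. Ckmt2, a mitochondrial creatine kinase, differed in that it was also high at 2 h with IBET858 alone (2.28, 2.03 and 2.32), beside 3.56, 3.0 and 3.20 with both agents, and it fell by 3.23 ± 0.12 with both agents and by 2.15 with IBET858 alone.

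Some of these genes were neighbours in the RefSeq gene order of assembly GRCm38.p6. On chromosome 11 the measured genes Pecam1, Milr1, Polg2 and Ddx5 follow each other. Milr1 differed by −0.24 ± 0.10 (adjusted p = 0.0349, a call lost with centred arrays and without array 1 or 2 of the 2 h group or array 1 or 3 of the 12 h group, with adjusted p from 0.0642 to 0.152), and Ddx5, an RNA helicase, fell by 0.46 ± 0.09. On chromosome 4 Rcc1 lies between Trnau1ap and the noncoding RNA gene Snhg3. Trnau1ap, which takes part in selenoprotein synthesis, fell by 1.59 ± 0.06, and Snhg3 was not called with both agents (0.02 ± 0.09, adjusted p = 0.867) and rose by 0.77 with BDNF alone. Also on chromosome 4, Tmem54 lies between Rnf19b, which fell by 0.40 ± 0.06, and Hpca, which was not called (−0.28, adjusted p = 0.3). Some neighbours were also higher at 2 h with both agents than with BDNF alone, Snhg3 by 1.75, Rnf19b by 1.57, Trnau1ap by 0.79 and Ddx5 by 0.59. That difference was 3.71 for Rcc1, 2.78 for Tmem54, 3.64 for Pecam1 and 3.29 for Polg2. It was −0.01 for Milr1 and −0.03 for Hpca. The differences at 2 h were not tested. The strand that each probe set reads was not examined, and whether a signal came from the gene itself or from a neighbouring transcript was not tested.

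**Figure D4:**
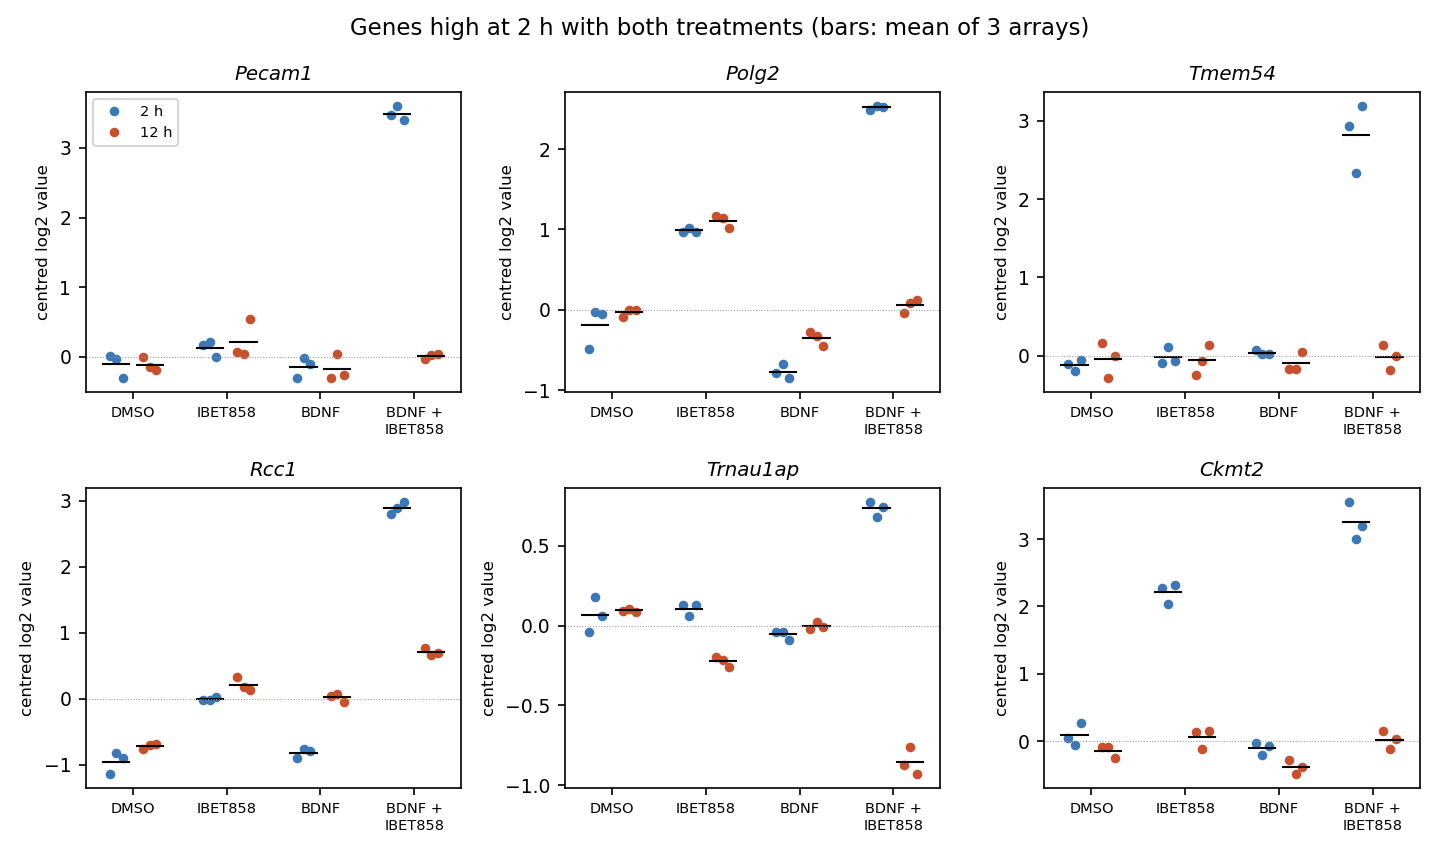
Centred log2 values of 6 genes on each of the 24 arrays, by treatment, with 2 h in blue, 12 h in orange and a bar at the mean of 3 arrays. The 3 arrays at 2 h with both agents are the highest of all in each panel, and Ckmt2 was also high at 2 h with IBET858 alone.

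Rrad, a small GTPase that inhibits voltage-gated calcium channels, differed most between the treatments and moved in opposite directions. With both agents it read 0.95, 0.52 and 0.71 at 2 h and 3.22, 3.20 and 3.26 at 12 h, and with BDNF alone 3.20, 2.87 and 3.19 and then 1.12, 1.02 and 1.28. The late arrays with both agents reached the level of the early arrays with BDNF alone. The rise of 2.50 ± 0.11 and the fall of 1.95 differed by 4.45 ± 0.15 (adjusted p = 1.63e-14). Tmem74 did likewise, with a rise of 1.59 ± 0.10 and a fall of 1.22. Grk5, a kinase of G protein-coupled receptors, rose by 2.22 ± 0.17 with both agents and by 1.97 with IBET858 alone and fell by 1.05 with BDNF alone.

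Rrad and Tmem74 belong to the 8 genes named for opposite directions, and the other 6 fell with both agents and rose with BDNF. These 6 were Gria3, Stum, Mgp (matrix Gla protein, an inhibitor of calcification), Plppr5, Nppc (C-type natriuretic peptide) and Vxn. Genes named for other reasons also had opposite directions, with Pim1 and Nfkbie higher and Rcc1 and Gask1b lower with both agents. Stum read −0.07, 0.02 and −0.09 and then −1.36, −1.83 and −1.98 with both agents, and −0.04, −0.16 and −0.09 and then 1.06, 1.37 and 1.38 with BDNF alone. The differences of the 6 genes ran from −2.46 for Nppc to −3.04 for Stum. Nppc was the exception at 2 h, where its arrays with both agents were already at 1.12, 1.11 and 1.14 while those with BDNF alone were at −0.09, 0.03 and −0.02.

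In a last set the rise with BDNF alone was absent or smaller with both agents. Chrna1, the alpha subunit of the muscle nicotinic acetylcholine receptor, read −0.08, 0.32 and 0.09 at 2 h and 0.74, 0.53 and 0.09 at 12 h with both agents, so the groups overlapped. With BDNF alone it went from a mean of −0.11 ± 0.12 (SD, n = 3) to 3.72, 3.69 and 3.64, a rise of 3.79. The time difference with both agents was 0.35 ± 0.13 (adjusted p = 0.0281), a call lost without array 1 or 3 of the 2 h group or array 1 or 2 of the 12 h group (adjusted p from 0.0654 to 0.198) and when only the arrays compared were fitted (adjusted p = 0.102). It lay below that with BDNF by 3.44 ± 0.19 (adjusted p = 1.09e-11). Cyp26b1, which degrades retinoic acid, rose by 2.66 with BDNF alone and was not called with both agents (−0.24 ± 0.14, adjusted p = 0.135, but 0.0279 and called without array 1 of the 12 h group). Gask1b, a Golgi protein, rose by 2.46 with BDNF alone and fell by 0.57 ± 0.14 with both. Mt2, a metallothionein, rose by 2.86 with BDNF alone and by 0.57 ± 0.09 with both. Rgs13, a regulator of G protein signalling, is outside this set, since its difference of 0.75 with BDNF alone was not called. It fell by 2.65 ± 0.47 with both agents. The large standard error of Rgs13 goes with the DMSO array 1 at 2 h, which read −2.94 where the other 2 DMSO arrays read 0.00 and 0.09.

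Genes of sterol synthesis and respiration were more often lower than higher. Of 28 genes of cholesterol synthesis and uptake, 22 were lower and 0 higher with both agents (34.5% and 26.3% of all genes), and 23 were lower and 0 higher with BDNF alone, with medians of −0.51 and −0.40. Insig1, the sterol-regulated anchor of SREBP in the endoplasmic reticulum, fell by 1.57 ± 0.08, and Idi1 and Pmvk, enzymes of the mevalonate pathway, by 1.39 ± 0.10 and 1.35 ± 0.08. Of 72 subunits of the mitochondrial respiratory chain, 44 were lower and 4 higher with both agents, beside 18 and 4 with BDNF alone and 29 and 7 with IBET858 alone. The complex I subunits Ndufs1 and Ndufb3 fell by 1.03 ± 0.05 and 0.95 ± 0.05 beside 0.02 and −0.24 with BDNF alone, and Cox7c, a subunit of cytochrome c oxidase, rose by 1.01 ± 0.09.

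Lists of stress and histone genes held fewer rises and more falls with both agents than with BDNF alone. Over all genes 26.3% were higher and 34.5% lower with both agents, and 20.1% and 19.3% with BDNF alone. Of 40 genes of endoplasmic reticulum stress and the ATF4 response, 6 were higher and 11 lower with both agents, whereas 16 were higher and 3 lower with BDNF alone. The difference was called downward for 15 and upward for 1 (20.9% and 19.3% of all genes). Ddit4, a stress-induced inhibitor of mTORC1, fell by 0.87 ± 0.05 beside −0.02 with BDNF alone. Of 24 heat shock genes 11 were lower and 5 higher, and the cochaperone Dnajb1 fell by 2.58 ± 0.06 with both agents and by 2.33 with BDNF alone. Of 12 measured histone genes, 1 was higher and 6 lower with both agents, and 4 higher and 1 lower with BDNF alone. With IBET858 alone 8 were higher and 2 lower (23.0% and 24.3% of all genes). H3c4 fell by 1.64 ± 0.17 with both agents and rose by 0.75 with IBET858 alone. Replication-dependent histone transcripts lack poly-A tails and histone genes are close in sequence, so their array values are uncertain.

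Genes of the transcription machinery were more often higher. Of 36 Mediator and RNA polymerase II subunits, 22 were higher and 9 lower with both agents (26.3% and 34.5% of all genes; median 0.26), beside 16 and 5 with BDNF alone (median 0.11). Med31 rose by 1.40 ± 0.05 and Med16 fell by 1.01 ± 0.06. Of 20 genes for BET proteins and P-TEFb regulators, 9 were higher and 3 lower. The P-TEFb subunits Ccnt1, Ccnt2 and Cdk9 rose by 0.96 ± 0.07, 0.95 ± 0.07 and 0.76 ± 0.06, beside 0.16, 0.25 and 0.12 with BDNF alone. With IBET858 alone they rose by 0.94, 0.65 and 0.21. The 5 probe sets of Ccnt2 ran from 0.24 to 1.74 with both agents. With both agents, the changes of the BET genes and of Hexim1 were small. Brd2 differed by 0.10 ± 0.06 (adjusted p = 0.142), Brd3 by −0.05 ± 0.05 (adjusted p = 0.35) and Hexim1, an inhibitor of P-TEFb, by −0.15 ± 0.10 (adjusted p = 0.213), none of them called. Brd2 was called with centred arrays (adjusted p = 0.0379), and Hexim1 when only the arrays compared were fitted (adjusted p = 0.0384) or the 2 arrays that stood apart were left out (adjusted p = 0.0363). Brd2 rose by 0.78 with IBET858 alone. Myc was not called either (0.02 ± 0.11, adjusted p = 0.877).

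Of 45 genes of the cell cycle and DNA licensing, 18 were higher and 6 lower with both agents (26.3% and 34.5% of all genes). With BDNF alone 7 were higher and 6 lower (20.1% and 19.3%), and with IBET858 alone 16 and 5 (23.0% and 24.3%). Gmnn, geminin, which blocks relicensing of origins, rose by 1.45 ± 0.09 with both agents. Of 305 numbered zinc finger genes, a list drawn up only after their values had been seen, 191 were higher and 44 lower with both agents (median 0.40), 182 and 21 with BDNF alone (median 0.31) and 28 and 5 with DMSO (median 0.06). Of 21 clock genes, 6 were higher and 8 lower with both agents, shares near those over all genes (26.3% and 34.5%). Arntl was up by 1.02 ± 0.08 and Dbp down by 1.16 ± 0.11. In the difference from BDNF alone 11 clock genes were called upward and 2 downward (19.3% and 20.9% of all genes).

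Microglial and general neuronal markers were more often lower than higher at 12 h with both agents. Of 15 microglial markers 13 were lower and 0 higher (34.5% and 26.3% of all genes), with a median of −0.70, beside 10 lower and 1 higher with BDNF alone. Their mean level per array ran from 0.29 to 0.50 at 2 h and from −0.35 to −0.24 at 12 h with both agents, without overlap. C1qc, a subunit of complement C1q, fell by 1.03 ± 0.09 and Ptprc (CD45) by 1.02 ± 0.11, while P2ry12 (−0.09, adjusted p = 0.625) and Tmem119 (−0.02, adjusted p = 0.895) were not called. Of 17 general neuronal markers 11 were lower and 4 higher, and the mean level per array ran from 0.26 to 0.29 at 2 h and from 0.01 to 0.03 at 12 h. Elavl4, a neuronal RNA-binding protein, fell by 2.13 ± 0.08 and Nefm, a neurofilament subunit, rose by 1.45 ± 0.10. Of 20 markers of excitatory neurons 10 were lower and 4 higher, of 19 interneuron markers 7 and 3, of 15 astrocyte markers 6 and 2, of 15 progenitor markers 5 and 3, of 14 oligodendrocyte lineage markers 6 and 1, and of 19 vascular markers 11 and 0. The interneuron, astrocyte, progenitor and oligodendrocyte lists thus had a smaller share of called members than all genes (60.8%). The part of a changing cell mixture in the gene differences above was not tested.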

How the data were processed

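Total RNA was measured on 24 Affymetrix mouse arrays. The authors deposited log2 values from RMA, as named in the submitters' processing notes. RMA corrects background, equalises the distributions of the arrays and summarises the probes of a set, so a change in total RNA per cell does not show. The table does not state the log base. For all 45101 probe sets the median over the 24 arrays was 0 (tolerance 1e-06), so levels are not known and no filter on dim genes was possible. The platform annotation gave 34945 probe sets with 1 gene symbol, 932 with several and 9211 not listed, and 64 controls were left out. Of the 34945, 34741 matched RefSeq's genes for GRCm38.p6, used for names and gene order. Probe sets naming a single gene were averaged into 1 value per gene (18193 genes, 9010 with more than 1 probe set).

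limma 3.58.1 in R 4.3.3 was fitted with 1 mean per group over 8 groups (16 residual degrees of freedom, eBayes), two-sided, with Benjamini-Hochberg adjustment over all genes. Tables were made with Python 3.11.15 and pandas 2.3.3. The comparisons were 12 h minus 2 h under each treatment and the difference of that between both agents and each other treatment. Tested on simulated data with 18193 genes, the fit recovered 81% of changes of 0.5 and 100% of changes of 1 (log2) for 12 h minus 2 h with both agents, and 53% and 92% for the difference from BDNF alone. Each size of change was set in 100 genes, with normal noise independent between genes. Far more genes were called on the real arrays, so these rates hold for the simulated setting only. The number of arrays limits the precision. Between 2 h and 12 h, deviations of same-numbered DMSO arrays correlated at 0.51, 0.24 and 0.32. Array 2 at 2 h also correlated with array 3 at 12 h (0.24), and array 3 at 2 h with array 2 at 12 h (0.21). By correlation the numbers thus matched array 1 and did not tell arrays 2 and 3 apart. Same-numbered arrays did not all correlate with the other treatments.

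Genes were named by rule: the 15 highest and lowest with both agents whose arrays did not overlap, the 12 highest and lowest in the difference from BDNF, the 5 highest and lowest in the differences from IBET858 and from DMSO, 8 with opposite signs, 8 called with both agents and not with BDNF, up to 4 per gene list, and a fixed set. Predicted genes were left out, and all but the fixed set were taken from called genes. Endothelial, microglial and neighbouring genes outside the rule were added after their values were seen. The members and lists were chosen with earlier results of these data known, and lists were described by counts and medians without a test. Alternatives changed the gene value, the probe sets, the scaling, the arrays fitted, the weights, the replicate block and eBayes, and left out single arrays.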

Additional observations from a re-analysis of the deposited data

Results flagged for a closer look

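The difference between the time courses with both agents and with BDNF alone was called in limma, by the test of the difference itself, for each gene named here, and the values are log2 differences (both agents minus BDNF alone). The time difference was more positive with both agents for Rrad (4.45), Grk5 (3.27), Cavin2 (3.13), Gxylt2 (3.10), Pim1 (3.06), Tmem74 (2.82), Ifi202b (2.65), Serpinb2 (2.58), Gsg1l (2.54), Smtn (2.52), Bbx (2.44) and Srxn1 (2.42). Gsg1l, an auxiliary subunit of AMPA receptors, rose by 2.50 ± 0.14 with both agents and by 0.79 with IBET858 alone, and Smtn, a cytoskeletal protein, by 2.38 ± 0.11 and 1.54.

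The time difference was more negative with both agents for Pecam1 (−3.45), Chrna1 (−3.44), Rgs13 (−3.40), Stum (−3.04), Gask1b (−3.04), Rcc1 (−3.02), Dleu7 (−3.02), Nckap5 (−3.01), Ckmt2 (−2.95), Gria3 (−2.95), Cyp26b1 (−2.90), Polg2 (−2.88), Mgp (−2.73), Vxn (−2.51), Plppr5 (−2.47) and Nppc (−2.46). Dleu7 and Nckap5 fell by 2.41 ± 0.17 and 2.21 ± 0.22 with both agents and by 2.89 and 2.63 with IBET858 alone, and with BDNF alone they rose by 0.61 and 0.79.

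Outside the gene measurements, the poly-A spike-in probe sets were 0.37 higher at 12 h than at 2 h with both agents, beside −0.11 with DMSO, 0.71 with IBET858 alone and −0.07 with BDNF alone.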

How the results depend on the processing

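Counts of called genes with both agents, with BDNF alone, with IBET858 alone and in the 3 differences stayed within 1.5 times their values under every alternative run. Leaving out 1 array gave 10079 to 10692 genes with both agents and 6756 to 7082 in the difference from BDNF alone. When each array was centred on its own median, 10521 genes were called with both agents, 49.4% of them higher instead of 43.3%. Same-numbered arrays with both agents and with BDNF alone did not deviate together (correlations from −0.07 to 0.12 over 18 pairs), nor did all of those with IBET858 alone (0.19, −0.20 and 0.20 between 2 h and 12 h), so no pairing was taken there. A replicate block gave 11016 genes with both agents, 7160 with BDNF alone and 7315 in their difference. With the block fitted on the arrays compared only, an alternative chosen after seeing the data, these were 11145, 7920 and 8333. For DMSO, same-numbered arrays deviated together, but arrays 2 and 3 did so across numbers too. There the block gave 1362 genes with all groups fitted. With the DMSO arrays alone the count was 239 (113 higher, 126 lower) with the block and 136 without it.

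The DMSO count of 1372 was the unstable one. It was 136 (66 higher, 70 lower) when only its own arrays were fitted without the block, 3933 (1912 higher, 2021 lower, 4 of them at least 2-fold higher) with array weights, and 2183 (1176 lower, 4 at least 2-fold higher, 20 at least 2-fold lower) without the 2 arrays that stood apart. Leaving out 1 DMSO array gave 830 (without array 2 at 12 h) to 1647 (without array 1 at 2 h) genes, 390 to 780 higher and 440 to 867 lower, with 0 to 6 at least 2-fold higher and 12 to 20 at least 2-fold lower. The cause was not tested beyond those settings.

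Of 2142 list medians recomputed, 2012 moved by less than the spread between arrays, 127 moved by more and 3 changed sign. These were the neurotrophin list with both agents, at 0.0065 with centred arrays and 0.0035 without array 1 at 2 h (from −0.101 to 0.0035 when single arrays were left out), and the ID and HES list in the difference from BDNF, at −0.00918 without probe sets that can read several transcripts. Of 17580 values of named genes, 392 lost and 337 gained the call and 6 changed sign. The 6 were Acta2 (0.055) and Igfbp5 (0.091) with IBET858 without those probe sets, Sorcs1 (0.045) with IBET858 by the median of probe sets, and Cadps2 with DMSO, at −0.65 with array weights, −0.80 without the 2 arrays apart and −0.80 without DMSO array 1 at 2 h (from −0.80 to 0.74 when single arrays were left out).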

Other observations

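Among the glial and progenitor markers counted above, single genes moved in both directions with both agents. Vim, an intermediate filament protein of progenitors and glia, rose by 1.83 ± 0.08 with both agents and by 0.98 with BDNF alone, and it fell by 0.52 with IBET858 alone. Ugt8a, an enzyme of myelin lipid synthesis, rose by 1.39 ± 0.11 beside 0.18 with BDNF alone, while Mbp, a myelin protein, fell by 0.87 ± 0.05. Sox9, a transcription factor of astrocytes and progenitors, fell by 1.78 ± 0.14 with both agents and by 1.90 with BDNF alone, with its probe sets between −2.79 and −0.08. Aqp4, the astrocyte water channel, fell by 0.93 ± 0.18 and Glul, glutamine synthetase, rose by 0.50 ± 0.07.

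Genes of secreted signals also moved in both directions. Of 49 growth factors and antagonists, 7 were higher and 21 lower with both agents, where 26.3% of all genes were higher and 34.5% lower. Bmp6 and Tgfb2 rose by 1.78 ± 0.12 and 1.78 ± 0.09, beside 0.34 and 0.62 with BDNF alone, and Sfrp2, a Wnt antagonist, fell by 1.59 ± 0.11. Of 29 neuropeptide genes 4 were higher and 10 lower, the latter the same share as over all genes. Nts, neurotensin, rose by 1.93 ± 0.25, and Crh, corticotropin-releasing hormone, fell by 1.72 ± 0.16 with both agents and by 2.22 with IBET858 alone, beside a difference of 0.38 with BDNF alone that was not called. Il6, a cytokine, rose by 0.92 ± 0.12 with both agents and by 3.06 with IBET858 alone. Among 35 NF-kappaB and inflammatory genes, 5 were higher and 17 lower, and Nfkbie, an inhibitor of NF-kappaB, rose by 0.92 ± 0.10 while it fell by 1.33 with BDNF alone.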
